A study of Mus musculus with 6 samples.

Results

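*Sucnr1* and 9 genes near it on mouse chromosome 3 were described across 6 RNA-seq libraries of primary hepatocytes, liver parenchymal cells that were purified on a density gradient and kept overnight on collagen. The genes were chosen by position and name. They were *Tsc22d2*, *Serp1*, *Eif2a*, *Selenot*, *Siah2* and *Aadac*, which lie before *Sucnr1* along the chromosome, and *Mbnl1*, *Rap2b* and *Dhx36*, which lie after it. These 10 genes were among 25184 genes with counts, and all 10 were among the 15105 genes that passed the filter on low counts and were tested. The control group was 3 *Sucnr1* fl/fl mice, which carried the floxed alleles but no Cre. The knockout group was 3 mice named Hep-*Sucnr1* KO, whose genotype was *Sucnr1* fl/fl with Alb-Cre+/-. All 6 mice therefore carried loxP sites around exon 2 of *Sucnr1*, and only the knockout mice carried Cre, so an effect of Cre itself cannot be told apart from one of the deletion. Cre was driven by the promoter of *Alb*, the albumin gene of hepatocytes. Which other liver cells carried the deletion cannot be read from these libraries. RNA was extracted on 2 days, with 1 library of each genotype on day 1 and 2 of each on day 2. The age of these mice is not given in the sources used here.

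SUCNR1 is a G protein-coupled receptor for succinate, an intermediate of the tricarboxylic acid cycle that cells also release. The receptor signals through G proteins of the Gi and Gq families. Genes that lie near an edited locus are a common companion measurement to the targeted gene. The 9 neighbours have no common function. They include an esterase, an RNA-splicing regulator, proteins of the endoplasmic reticulum and of translation, a ubiquitin ligase, a small GTPase, a helicase and a transcriptional regulator.

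*Sucnr1* (ENSMUSG00000027762) spans bases 60081869 to 60087566 of chromosome 3 on the plus strand (GRCm38). The annotated transcript described here has 2 exons and 1571 bases, while all annotated exons of the gene together cover 1640 bases. Exon 1 (60081869 to 60081928) is 60 bases long, 3.8% of the transcript, and holds 3 of the 951 coding bases. Exon 2 (60086056 to 60087566) is 1511 bases long and holds the other 948 coding bases, 99.7% of them, and an intron of 4127 bases lies between the exons. By length, nearly the whole transcript thus lies in the floxed exon. The first 90 coding bases show the split. The capitals mark the start codon, which is the whole coding part of exon 1, and the lower case letters come from exon 2.
Sucnr1 coding start: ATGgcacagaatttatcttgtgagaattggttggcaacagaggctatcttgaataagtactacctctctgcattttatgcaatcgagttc
The 250 bases before the RefSeq transcription start (chr3:60081619-60081868, plus strand, GRCm38.p6) lie outside the floxed exon and are shown because they carry the local sequence from which the gene is transcribed. The capitals mark the one CpG dinucleotide of the window.
Sucnr1 promoter: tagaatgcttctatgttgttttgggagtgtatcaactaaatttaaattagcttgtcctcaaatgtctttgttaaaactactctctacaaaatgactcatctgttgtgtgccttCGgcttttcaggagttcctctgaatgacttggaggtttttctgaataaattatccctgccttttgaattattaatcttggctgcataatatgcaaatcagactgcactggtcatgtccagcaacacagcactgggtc

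The depth was similar across the libraries, with totals between 30504248 and 38770694 counts. Values are given as CPM, counts scaled to a common library total with TMM factors. *Sucnr1* had 258, 118 and 103 counts in *Sucnr1* fl/fl replicates 1, 2 and 3, which is 6.71, 3.55 and 3.39 CPM. In Hep-*Sucnr1* KO replicates 3, 4 and 5 it had 84, 28 and 5 counts, which is 2.66, 0.827 and 0.152 CPM. Every knockout library lay below every control library, but the highest knockout library and the lowest control library were close, with 95% Poisson counting intervals of 2.12 to 3.29 and 2.77 to 4.12 CPM. The group means were 4.55 ± 1.87 CPM in controls and 1.21 ± 1.30 CPM in knockouts (SD, n = 3 each). In the model of extraction day and genotype, *Sucnr1* was 4.69-fold lower in the knockouts, with a 95% interval of 1.94 to 11.3 (log2 fold change −2.23, SE 0.54). In edgeR's quasi-likelihood test this gave an unadjusted p of 0.00444, rank 30 of the 15105 genes, and an FDR of 0.998 after Benjamini-Hochberg adjustment, so the targeted gene did not pass an FDR of 0.05. DESeq2 gave a log2 fold change of −2.31 with an adjusted p of 0.0328. The two-sided exact permutation test on CPM gave p = 0.1, the smallest p that 3 against 3 allows. In these bulk libraries, fewer cells of a type and less RNA per cell cannot be told apart.

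**Figure D1:**
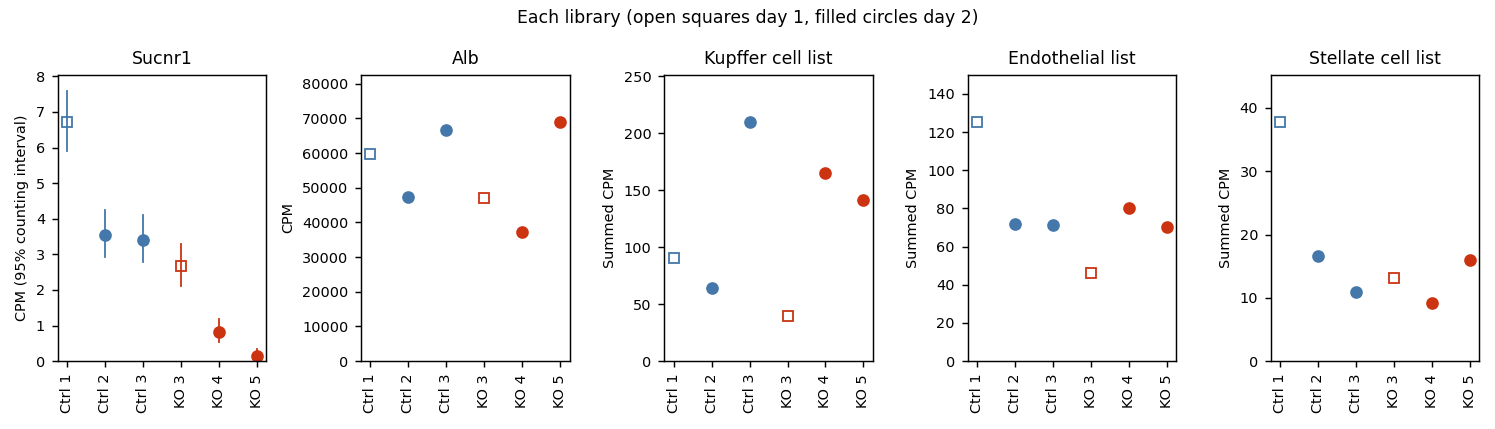
Each panel plots the 6 libraries along the x axis (Ctrl, *Sucnr1* fl/fl; KO, Hep-*Sucnr1* KO; open squares, day 1; filled circles, day 2). The y axes give *Sucnr1* in CPM with 95% counting intervals, *Alb* in CPM, and the summed CPM of the Kupffer cell, sinusoidal endothelial cell and stellate cell lists. *Sucnr1* runs from 6.71 CPM in the first control to 0.152 CPM in the last knockout, and none of the other panels keeps that order.

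The residual *Sucnr1* signal differed widely among the knockouts. Levels were set against same-day controls, the mean of 2 libraries on day 2 but 1 library on day 1. The level in Hep-*Sucnr1* KO replicate 3 was 39.6% (95% counting interval 31.6 to 49.1%, for its own count) of *Sucnr1* fl/fl replicate 1. That control had 6.71 CPM, against 3.55 and 3.39 CPM in the day 2 controls. In knockout replicate 4 the level was 23.8% (15.8 to 34.4%) and in replicate 5 it was 4.37% (1.42 to 10.2%). These intervals, which leave out the error of the controls, do not overlap between replicate 5 and either of the others. The coefficient of variation of *Sucnr1* was 107% among knockouts and 41.1% among controls, against a range of 1.66 to 27.3% for the 9 neighbours in either genotype. The neighbours had 681 to 12740 counts per library, against 5 to 258 for *Sucnr1*, so their counting error was smaller. Each of these values also spans both extraction days. Only for replicate 5 did the interval include 3.8%, the share of the 1571-base transcript that lies in exon 1. That share is by length alone. How reads fall along the transcript, and whether one without exon 2 is kept, was not tested. The counts are per gene, so reads from exon 1 and from an undeleted exon 2 cannot be told apart.

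The size of the *Sucnr1* difference rested on which libraries were compared. Within a day, differences are given as those of the mean log2 CPM with no prior count. For *Sucnr1* this was −1.34 between the single pair of day 1 libraries, which has no replicate check, and −3.29 on day 2, where the library with 5 counts weighs heavily. The edgeR fit of the day 2 libraries alone gave −2.82. The interaction of genotype and day was −1.48 on the log2 scale, with an unadjusted p of 0.185 in edgeR's quasi-likelihood test. With Hep-*Sucnr1* KO replicate 3 left out the log2 fold change was −2.82, with *Sucnr1* fl/fl replicate 1 left out it was −2.81, and with Hep-*Sucnr1* KO replicate 5 left out it was −1.71. The edgeR FDR stayed between 0.448 and 0.9995 over the 6 fits that each leave out 1 library. The DESeq2 call was lost without *Sucnr1* fl/fl replicate 1, 2 or 3, with adjusted p of 0.0896, 0.282 and 0.439. It was kept without Hep-*Sucnr1* KO replicate 3, 4 or 5, with adjusted p of 0.0310, 0.0194 and 0.00148. These DESeq2 fits were added after the data were seen.

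*Sucnr1* also differed between the extraction days. Its mean was 4.68 CPM on day 1 and 1.98 CPM on day 2, and the day coefficient at fixed genotype was −1.64 on the log2 scale (SE 0.53). The unadjusted p in edgeR's quasi-likelihood test was 0.0176 and the FDR 0.548, and DESeq2 gave −1.72 with an adjusted p of 0.0989. Within each genotype the day 1 library was the highest. Over the fits that left out 1 library the day coefficient ran from −2.43 to −0.99, the latter without Hep-*Sucnr1* KO replicate 3.

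Some markers of other cells also had large day coefficients, though the sums of every list but the neutrophil one overlapped between days. Of the 12 Kupffer cell genes 11 were higher on day 2, with a median day coefficient of 2.06, and 8 had an unadjusted p under 0.05, against 5.16% of all tested genes that were higher on day 2. *Clec4f* was 2.02 higher (SE 0.68, unadjusted p of 0.0218 in edgeR's quasi-likelihood test). All 8 tested stellate cell genes were lower on day 2, as *Sucnr1* was, with a median of −0.71. *Reln* (−1.18) and *Dcn* (−1.17), the latter a matrix proteoglycan gene chosen for naming after its values were seen, had an unadjusted p under 0.05, against 2.33% of all tested genes that were lower on day 2. The sinusoidal endothelial list had 11 of 12 genes lower, with a median of −0.24 and none with an unadjusted p under 0.05. The median was 2.57 over 3 neutrophil genes, 2 of which had such a p, 1.43 over 5 erythroid genes, −0.29 over 5 cholangiocyte genes and −0.04 over 12 hepatocyte genes. No gene of these lists passed an FDR of 0.05 by day. The summed CPM of the Kupffer list was 39.4 to 90.3 on day 1 and 63.9 to 209.6 on day 2. In controls, replicate 2 of day 2 had a lower Kupffer sum (63.9 CPM) than replicate 1 of day 1 (90.3 CPM). The endothelial and stellate sums were highest in *Sucnr1* fl/fl replicate 1 of day 1. Among knockouts the day 1 library had the lowest endothelial sum (45.9 CPM, against 80.1 and 70.4 CPM on day 2). Its stellate sum (13.2 CPM) lay between those of day 2 (9.18 and 16.0 CPM). The part of these cells in the day difference of *Sucnr1* was not tested.

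Markers of the cells that could accompany hepatocytes were followed beside *Sucnr1*. *Alb*, the gene whose promoter drives Cre, stood between 37109 and 68901 CPM in the 6 libraries, and the 12 hepatocyte genes summed to 76242 to 97962 CPM in controls and 67946 to 101553 CPM in knockouts. The Kupffer cell list, for the resident macrophages of liver, summed to 63.9 to 209.6 CPM in controls and 39.4 to 165.2 CPM in knockouts. Its 12 genes all had a negative genotype coefficient in the model with day, against 49.5% of all tested genes. The median was −0.40, and none had an unadjusted p under 0.05 in edgeR's quasi-likelihood test. Plain group means of these genes went both ways. They were 13.7 CPM in controls and 14.1 CPM in knockouts for *Clec4f*, and 32.8 and 30.8 CPM for *Cd68*. The sinusoidal endothelial list summed to 71.5 to 125.1 CPM and 45.9 to 80.1 CPM, with 11 of 12 genes lower and a median of −0.25. The stellate cell list summed to 10.8 to 37.7 CPM and 9.18 to 16.0 CPM, with 6 of 8 tested genes lower and a median of −0.48. Of these, *Reln*, a secreted glycoprotein gene, had an unadjusted p under 0.05 (−1.20, p of 0.0242 in edgeR's quasi-likelihood test), 1 of 8 against 3.72% of all tested genes (1.81% lower in the knockouts). None of these lists had a gene past an FDR of 0.05 in edgeR's quasi-likelihood test or an adjusted p of 0.05 in DESeq2. *Sucnr1* fl/fl replicate 1, the library with the most *Sucnr1*, also had the highest endothelial and stellate sums. Hep-*Sucnr1* KO replicate 3, with the most *Sucnr1* among the knockouts, had the lowest Kupffer and endothelial sums of all 6 libraries. *Cd68* made 29.0 of the 39.4 CPM of its Kupffer sum. Among defining markers, *Clec4f* of Kupffer cells had 1.90 CPM in that library and up to 25.2 CPM elsewhere, and *Stab2* of sinusoidal endothelium ran from 4.35 to 9.33 CPM. *Lrat* of stellate cells ran from 0.0989 to 0.416 CPM and *Krt19* of cholangiocytes from 0.118 to 0.890 CPM. The cholangiocyte list summed to 350.1 to 512.0 CPM in controls and 425.9 to 650.3 CPM in knockouts. Most of that sum came from *Spp1* (266 to 526 CPM over the 6 libraries) and *Sox9* (83.1 to 122 CPM). The neutrophil list summed to 0.962 to 5.90 and 0.854 to 5.96 CPM, and the erythroid list to 73.6 to 115.0 and 86.8 to 114.7 CPM. Most of the erythroid sum was *Alas2*, with 71.2 to 101 CPM over the 6 libraries. The part of these cells in the *Sucnr1* difference was not tested.

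Levels of the 10 genes in control hepatocytes, compared as CPM per kilobase of annotated exon, ranged from 225 to 2.26 CPM per kb. *Aadac*, an esterase of the endoplasmic reticulum that acts on drugs and lipids, was highest with 225 ± 35.9 CPM per kb (SD, n = 3) and stood at the 98.7th percentile of tested genes. *Selenot*, a selenoprotein of the endoplasmic reticulum, followed with 40.1 ± 5.78 and *Serp1*, which stabilises membrane proteins during stress of that compartment, with 37.6 ± 2.69 CPM per kb. The ranges of these overlapped, so their order is not resolved. *Tsc22d2* had 15.5, *Siah2* 10.4, *Rap2b* 7.55 and *Eif2a* 4.26 CPM per kb, each range clear of the next. *Mbnl1*, *Sucnr1* and *Dhx36* closed the order with 2.85 ± 0.43, 2.77 ± 1.14 and 2.26 ± 0.16 CPM per kb, and the range of *Sucnr1* overlapped those of both its neighbours in the order. *Sucnr1* in controls thus lay at the 55.6th percentile of the tested genes per kilobase. In knockouts its mean was 0.739 ± 0.791 CPM per kb, below all 9 neighbours, whose lowest knockout mean was 2.12 CPM per kb for *Dhx36*.

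**Figure D2:**
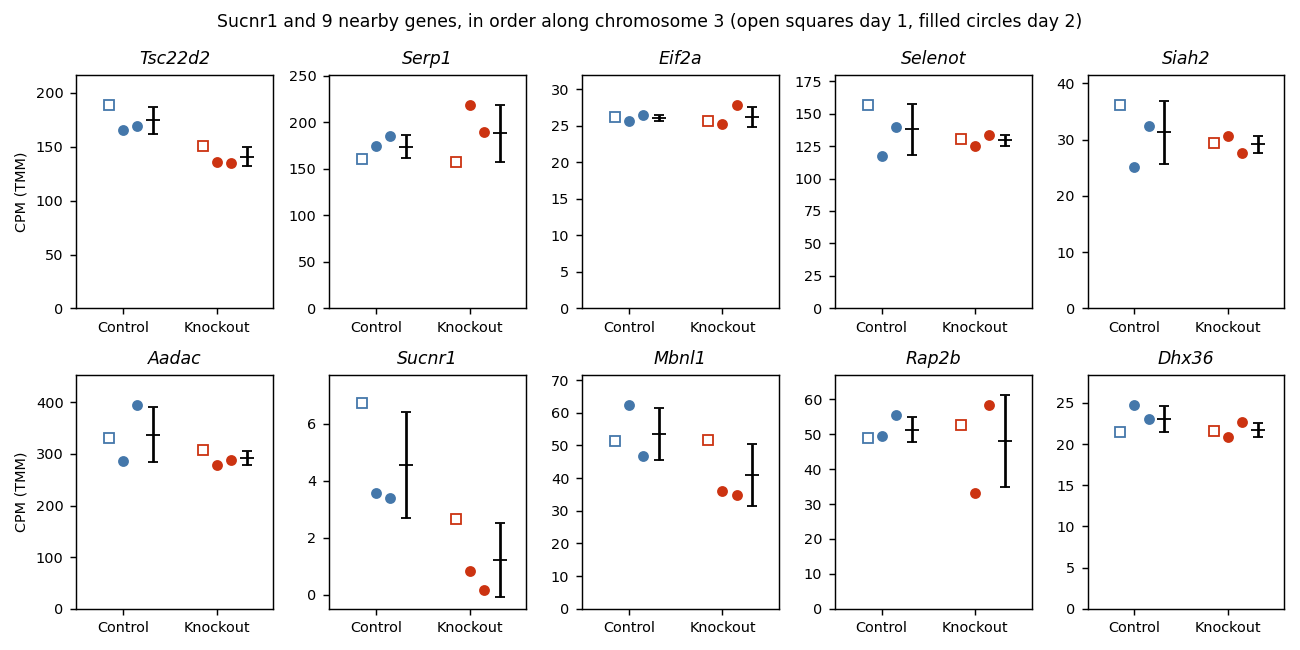
Each panel plots 1 gene in CPM (TMM) in the 6 libraries, in order along chromosome 3; open squares are day 1, filled circles day 2, and the bars mean ± SD of 3 libraries per genotype. The knockout libraries lie below all control libraries for *Sucnr1* and *Tsc22d2*, and the genotypes overlap for the other 8 genes.

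The genes on either side of *Sucnr1* were *Aadac*, whose start lies 56.2 kb before that of *Sucnr1*, and *Mbnl1*, 391.0 kb after it. *Aadac* had 331, 287 and 394 CPM in *Sucnr1* fl/fl replicates 1 to 3, and 307, 279 and 289 CPM in Hep-*Sucnr1* KO replicates 3 to 5. The genotypes overlapped, since 2 of the knockout libraries lay within the control range and the other one below it. Its log2 fold change was −0.21 (SE 0.15, 95% interval −0.58 to 0.15), with p = 0.3 in the two-sided exact permutation test. *Mbnl1*, a regulator of alternative splicing, had 51.2, 62.3 and 46.8 CPM in controls and 51.8, 35.9 and 34.8 CPM in knockouts. Hep-*Sucnr1* KO replicate 3 lay inside the control range and the 2 day 2 knockouts below it. Its log2 fold change was −0.41 (SE 0.18, 95% interval −0.83 to 0.006), with an unadjusted p of 0.0524 in edgeR's quasi-likelihood test and 0.0403 in DESeq2. The *Mbnl1* difference was 0.02 on day 1 and −0.61 on day 2, and the interaction had an unadjusted p of 0.0827. Reads of *Mbnl1* share their strand with the predicted genes *Gm37488* and *Gm37589*, which overlap it.

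*Tsc22d2*, a leucine zipper protein of the TSC22 family, lies 1667.2 kb before *Sucnr1* and was the only neighbour whose genotypes did not overlap. It had 189, 165 and 169 CPM in *Sucnr1* fl/fl replicates 1 to 3 and 151, 136 and 135 CPM in Hep-*Sucnr1* KO replicates 3 to 5. The lowest control library was above the highest knockout library, and this also held within each day. The group means were 174.5 ± 12.5 and 140.7 ± 9.0 CPM (SD, n = 3 each). It was 1.24-fold lower in the knockouts, with a 95% interval of 1.05 to 1.47 (log2 fold change −0.31, SE 0.10). The unadjusted p was 0.0207, rank 169 of 15105, and the FDR 0.998 in edgeR's quasi-likelihood test, and DESeq2 gave −0.33 with an adjusted p of 0.613. The coefficient moved little when 1 library was left out, from −0.32 to −0.30, while its unadjusted p ran from 0.0317 to 0.0805. The difference was −0.32 on day 1 and −0.30 on day 2.

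The other 6 neighbours lay 1279.8 to 2425.1 kb from *Sucnr1*. *Serp1* had 161, 174 and 186 CPM in controls and 157, 219 and 189 CPM in knockouts, a log2 fold change of 0.11 (SE 0.12). Its lowest values in each genotype were from day 1. *Selenot* had 157, 117 and 140 CPM in controls and 130, 125 and 133 CPM in knockouts (−0.08, SE 0.13), with the knockouts inside the control range. *Eif2a*, an initiation factor that can deliver initiator tRNA, was the steadiest of the genes among controls, with 25.6 to 26.4 CPM. It had 25.3 to 27.8 CPM in knockouts (0.01, SE 0.10), where other neighbours varied less. *Eif2a* and *Serp1* overlap on opposite strands and the counting used strand. *Siah2*, a ubiquitin ligase that acts in the response to low oxygen, had 36.1, 25.2 and 32.5 CPM in controls and 29.3, 30.6 and 27.6 CPM in knockouts (−0.09, SE 0.14), again inside the control range. *Rap2b*, a small GTPase of the Ras family, had 49.0, 49.4 and 55.4 CPM in controls and 52.6, 33.2 and 58.3 CPM in knockouts (−0.10, SE 0.21). Its knockout spread rested on replicate 4, without which the log2 fold change was 0.13. *Dhx36*, a helicase that unwinds G-quadruplexes, had 21.5 to 24.7 CPM in controls and 20.9 to 22.7 CPM in knockouts (−0.09, SE 0.11).

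The 9 neighbours had small genotype coefficients. The coefficient was negative for 7 of the 9 and positive for 2, with a median of −0.09, while 49.5% of all tested genes had a negative coefficient. For 8 of the 9 the 95% interval included 0, and over the 9 intervals the lowest bound was −0.83, that of *Mbnl1*, and the highest 0.40, that of *Rap2b*. At an FDR of 0.05 in edgeR's quasi-likelihood test, 0 of the 10 genes were called, as were 0% of all tested genes. At an unadjusted p under 0.05, *Sucnr1* and *Tsc22d2* passed, 2 of the 10, against 3.72% of all tested genes (1.81% lower and 1.91% higher in the knockouts). In DESeq2, *Sucnr1* alone had an adjusted p under 0.05, against 0.0636% of the genes for which it gave one. Groups without overlap, lower in the knockouts, were seen for the same 2 of 10 genes and for 4.04% of all tested genes, while 6.54% were higher without overlap (10.6% in either direction). The FDR was 0.998 for each of the 10 genes.

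**Figure D3:**
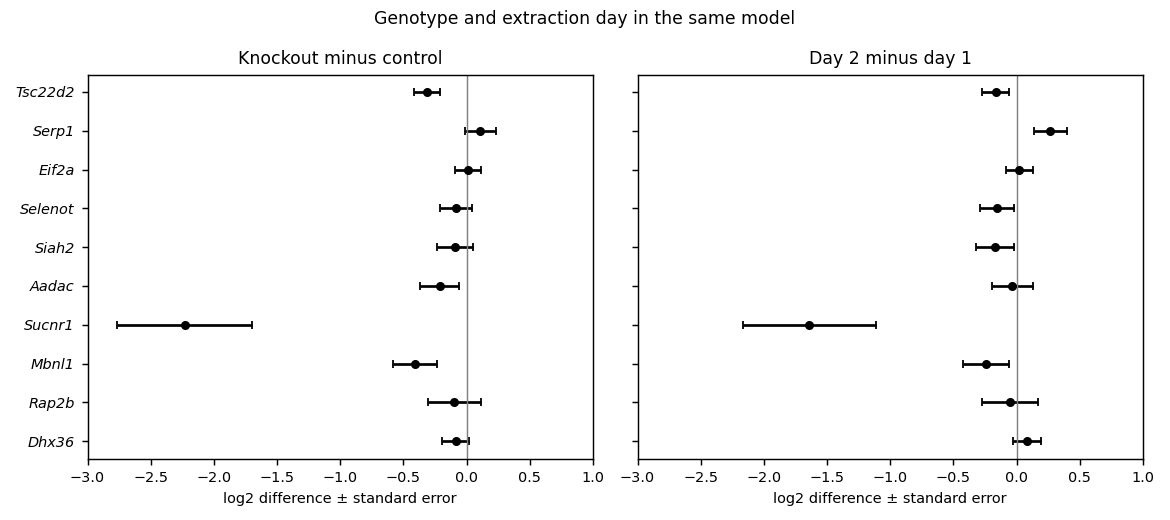
The left panel plots the log2 difference of knockout minus control and the right panel that of day 2 minus day 1, each ± standard error from 1 edgeR model over 6 libraries, for the 10 genes in order along chromosome 3. *Sucnr1* stands at −2.23 and −1.64, and the 9 neighbours lie between −0.41 and 0.27 in both panels.

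Differences by extraction day were small among the neighbours. Of the 9, 6 had a negative and 3 a positive day coefficient, with a median of −0.05, while 46.7% of all tested genes were lower on day 2. The largest was that of *Serp1*, 0.27 higher on day 2 (SE 0.13, unadjusted p of 0.0829 in edgeR's quasi-likelihood test). *Sucnr1* was thus the only one of the 10 genes with an unadjusted p under 0.05, against 7.49% of all tested genes (2.33% lower and 5.16% higher on day 2), and 0 passed an FDR of 0.05, as did 0% of all genes. DESeq2 called none of the 10 by day and 1.61% of all genes. For the interaction of genotype and day, 0 of the 10 had an unadjusted p under 0.05, against 3.69% of all tested genes. None passed an FDR of 0.05 (0% of all genes), and DESeq2 called 0.0265% of all genes for it.

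In a wider window, 70 other genes that start within 5 Mb of the *Sucnr1* start were listed, of which 35 were tested, the 9 neighbours among them. The genotype coefficient was negative for 23 of the 35 (65.7%) and positive for 12, with a median of −0.08. Over the 761 tested genes of chromosome 3 the share was 47.0% and the median 0.02, and over all other tested genes the median was 0.003. The median was −0.030 without *Sucnr1* fl/fl replicate 1 and −0.019 without *Sucnr1* fl/fl replicate 3. The share depended on the window, with 10 of 17 genes lower within 2 Mb and 45 of 86 within 10 Mb, where the median was −0.01. Before *Sucnr1*, 14 of 21 genes were lower, and after it 9 of 14. The 2 tested genes nearest before it were *Aadac* and the pseudogene *Gm5539* (0.11, SE 0.37), and the 2 nearest after it were *Mbnl1* and *Gm37488* (−0.29, SE 0.65). The lowest coefficient among genes outside the 10 was that of *Nbea*, −0.48 (SE 0.39), and the highest that of the lincRNA *Gm43549*, 1.28 (SE 0.54), which stood at 0.0601 to 0.354 CPM. Of the 35, 2 had an unadjusted p under 0.05 in edgeR's quasi-likelihood test and 0 an FDR under 0.05, against 3.72% and 0% of all tested genes. These were *Tsc22d2* and *Tm4sf1* (−0.46, unadjusted p of 0.0341), a tetraspanin-like membrane protein that was chosen for naming after its values were seen. *Tm4sf1* had 15.6, 11.8 and 9.69 CPM in controls and 9.33, 9.74 and 7.53 CPM in knockouts, and the genotypes overlapped narrowly.

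**Figure D4:**
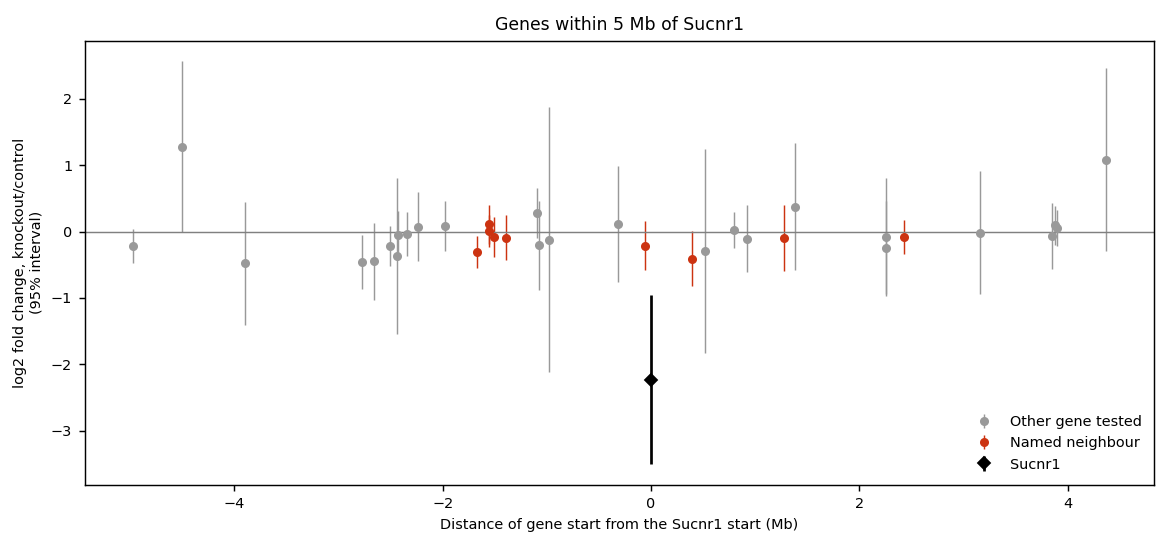
The x axis gives the distance of each gene's start from the *Sucnr1* start in Mb and the y axis the log2 fold change of knockout against control, with 95% intervals from edgeR, for *Sucnr1* (black), the 9 named neighbours (red) and the other tested genes within 5 Mb (grey). *Sucnr1* at −2.23 lies below the 35 other genes, whose coefficients run from −0.48 to 1.28.

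Several receptor genes related to *Sucnr1* lie in the same stretch of chromosome 3 and had low counts here. *P2ry1*, a receptor for ADP, had 125, 84 and 67 counts in controls and 78, 80 and 83 in knockouts, or 2.66 ± 0.53 and 2.45 ± 0.08 CPM (SD, n = 3 each). Its log2 fold change was −0.11 (95% interval −0.61 to 0.40). *Gpr171* had 1 to 12 counts per library and a log2 fold change of −0.12, with an interval of −2.12 to 1.87. *P2ry12*, *P2ry13* and *P2ry14*, receptors for nucleotides and nucleotide sugars, had at most 1, 14 and 11 counts in a library and did not pass the filter. *Sucnr1* and *P2ry1* were thus the only receptors named here with more than 14 counts in any library. *Nceh1*, a relative of *Aadac* that hydrolyses cholesterol esters, had 11.7 ± 1.75 CPM in controls and 11.1 ± 6.06 CPM in knockouts.

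The coupling machinery of Gi and Gq receptors was listed as 33 genes, of which 29 passed the filter. Of these, 17 had a negative and 12 a positive genotype coefficient, with a median of −0.04. In edgeR's quasi-likelihood test 0 passed an FDR of 0.05 and 1 had an unadjusted p under 0.05, against 3.72% of all tested genes, and DESeq2 called 0. The gene with that p was *Grk6*, a kinase that phosphorylates active receptors. *Grk6* had 17.0, 13.9 and 12.99 CPM in controls and 13.5, 10.6 and 11.6 CPM in knockouts, a log2 fold change of −0.30 (unadjusted p of 0.0381). Its genotypes overlapped on the value of Hep-*Sucnr1* KO replicate 3. No gene of the list had an unadjusted p under 0.05 when Hep-*Sucnr1* KO replicate 3 or any of the controls was left out. By mean level per kilobase, *Gnai3* was the highest G protein gene, with 27.6 CPM per kb in controls, close to *Gng12* (24.96) and *Gnb1* (24.4), and the order of these is not resolved. *Gnai3* had 90.1 ± 11.51 CPM in controls and 90.6 ± 5.59 CPM in knockouts (0.01, SE 0.11). *Plcb3* led the phospholipases with 9.58 ± 0.76 and 9.83 ± 0.96 CPM (0.04, SE 0.13). *Adcy9* led the adenylyl cyclases with 14.05 ± 5.30 and 11.4 ± 1.83 CPM (−0.25, SE 0.18), and *Arrb2* the arrestins with 4.22 ± 1.00 and 3.94 ± 0.84 CPM (−0.11, SE 0.21).

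The genes whose log2 CPM followed *Sucnr1* most closely over the 6 libraries were *A830082N09Rik*, *Wasf2*, *Tmem63b*, *Zbtb44* and *Hnrnpul2*, with Pearson r of 0.984, 0.9752, 0.974, 0.967 and 0.967. Across 15104 other genes, 17 had an r above 0.95, and with 6 points that share library, day and scaling these are descriptions only. *Wasf2*, a regulator of actin assembly, ran from 54.4 CPM in *Sucnr1* fl/fl replicate 1 to 42.6 CPM in Hep-*Sucnr1* KO replicate 5, a far narrower span than that of *Sucnr1*. Of the neighbours, *Tsc22d2* (r = 0.889) and *Mbnl1* (r = 0.831) were most like *Sucnr1*, at the 99.3rd and 98.1st percentiles of tested genes. With the genotype means removed, r was 0.75 for *Tsc22d2* and 0.67 for *Mbnl1*. *Aadac*, the nearest gene, had an r of 0.50, and *Eif2a* and *Serp1* had −0.57 and −0.59.

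RefSeq promoters were matched for 8 of the 10 genes, all but *Tsc22d2* and *Siah2*, and the sequences before the gene starts differed widely among these 8. The 250 bases upstream were searched on both strands for 3 short motifs. For *Aadac* and *Rap2b* the RefSeq start lies well inside the gene as placed by GENCODE, whose starts gave the distances above. Of 32851 promoters, 12.4% held the TATA box letters TATAAA. The CCAAT box was held by 33.8%, and 32.7% held the GC box letters GGGCGG, and none of the 3 is part of another. The *Sucnr1* window printed above was 38.0% G and C with 1 CpG, and held none of the 3 motifs. Over all promoters the median was 52.4% with 6 CpG, and 18.8% had 1 CpG or fewer. *Mbnl1*, taken at the first of its 2 RefSeq starts, also had 38.0% and 1 CpG, and *Aadac* had 36.4% and 3 CpG. *Selenot* had 49.6% and 8 CpG. *Eif2a*, *Serp1*, *Rap2b* and *Dhx36* had 57.2 to 70.8% and 19 to 30 CpG, and GGGCGG was found in *Eif2a*, *Rap2b* and *Dhx36*. The TATA box letters were found in *Mbnl1* and *Selenot*, and the CCAAT box in *Aadac*, *Mbnl1* and *Serp1*. The 3 genes that lie side by side, *Aadac*, *Sucnr1* and *Mbnl1*, thus had the fewest CpG of the 8. A motif match here describes letters only.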

How the data were processed

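Poly(A) RNA of 6 hepatocyte preparations, 3 per genotype, was sequenced as stranded read pairs. The authors trimmed reads with Trim Galore 0.6.7, aligned them to GRCm38 with STAR 2.7.10a and deposited raw, unnormalized counts per gene made with featureCounts and the Ensembl annotation, with strand used. How pairs that match several genes were counted is not given in the sources used here. Each library is from 1 mouse, and totals were at least 30504248 counts, so counting error was small except for genes at a few counts. Poisson intervals cover counting error only.

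Genes whose mean count after DESeq2 normalization exceeded 5 were tested with edgeR 4.0.16 (R 4.3.3, quasi-likelihood, TMM) with day and genotype as terms, and p-values were adjusted over all 15105 genes (Benjamini-Hochberg). Standard errors were the coefficient divided by the square root of F. Log2 CPM used a prior count of 2. DESeq2 1.42.0, with the day as covariate as in the study, was the alternative. Others were different scaling and filters, a robust fit, no day, day 2 alone, the 2 series of library index names as a term, other windows and each library left out. Tests were checked on simulated counts. Positions and exon lengths are from GENCODE M21 (GRCm38), which placed 25130 of the 25184 identifiers, and promoters are from RefSeq.

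Named were the 10 genes, the locus receptors, the extreme and the 2 nearest tested genes of the 5 Mb window, signalling genes with an unadjusted p under 0.05 and the most abundant of each signalling class, the 5 genes most like *Sucnr1*, *Alb* and 4 defining markers. *Reln*, *Gng12*, *Gnb1*, *Spp1*, *Sox9*, *Alas2* and *Cd68* were named after their values were seen. The genes and lists were chosen with earlier results of these data known. No column was left unassigned to a sample, and raw reads were not analysed here. A listed receptor gene is not reported here.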

Additional observations from a re-analysis of the deposited data

How the results depend on the processing

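The labels pair no control mouse with a knockout mouse, so no paired analysis was run, and extraction day was a term of the model. *Sucnr1* was lower in the knockouts under every alternative run. It passed an adjusted p of 0.05 in DESeq2 (−2.31, adjusted p 0.0328) and not in any edgeR fit. With 1 library left out its log2 fold change ran from −2.82 to −1.71 in edgeR and from −2.84 to −1.73 in DESeq2 (−2.80 without Hep-*Sucnr1* KO replicate 4), whose adjusted p ran from 0.00148 to 0.439. It was −1.91 without the day term, −2.46 with the index series as a term and −2.82 on day 2 alone. The index series cannot be fully told apart from genotype, since all 3 knockouts and 1 control were in the second.

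Calls over all genes depended on the tool and on single libraries. DESeq2 called 7 genes by genotype, 225 by day and 4 by interaction, and edgeR called 0 for each. With 1 library left out the DESeq2 genotype count ran from 2, without *Sucnr1* fl/fl replicate 1, to 79, without Hep-*Sucnr1* KO replicate 5. It was 3 without replicate 3 of either genotype. Without the filter edgeR called 122 genes by day, and with 1 library left out 0 to 29, the highest without *Sucnr1* fl/fl replicate 2. The cause was not tested.

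The number of neighbours lower in the knockouts was 5 to 8 of 9 under the alternatives. The sign of *Eif2a* was not stable. It was −0.012 with DESeq2, −0.013 with its size factors, −0.022 with library size alone, −0.011 without a filter, −0.0027 with edgeR's own filter and −0.0056 with the index series. Its day difference was −0.0042 with edgeR's own filter. On day 2 alone *Siah2* was 0.0045 and *Selenot* 8.45e-06. With 1 library left out the log2 fold change ran from −0.22 to 0.012 for *Siah2*, −0.18 to 0.0078 for *Selenot*, −0.037 to 0.043 for *Eif2a* and −0.32 to 0.13 for *Rap2b*. The day difference ran from −0.15 to 0.0038 for *Aadac*, −0.55 to 0.055 for *Mbnl1*, −0.045 to 0.053 for *Eif2a* and −0.23 to 0.12 for *Rap2b*. The median within 5 Mb ran from −0.12 to −0.019 and was −0.014 within 10 Mb. The signalling list held 0 to 1 genes with an unadjusted p under 0.05.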
